A study of Mus musculus with 14 samples.

Results

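RNA that the oocyte may have left behind was followed in cloned mouse embryos through 9 genes. They are genes for the egg coat, for factors secreted by the oocyte and for oocyte transcription. These were the zona pellucida genes Zp1, Zp2 and Zp3, the secreted factor genes Gdf9, Bmp15 and Oosp1, the protease gene Astl, and the transcription factor genes Figla and Nobox. They were taken by name from the 25650 transcript entries of each file, of which 25250 carry a gene symbol, and each gene had 1 entry. The material was 14 single SCNT (somatic cell nuclear transfer) embryos of the strain B6D2F1 that had reached 2 cells, made by fusing a cumulus cell with an enucleated oocyte, with 1 RNA-seq library per embryo.

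The 6 treatments were Control (3 embryos, neither agent), VC(0-8h) (1 embryo), VC(8-15h) (2 embryos), TSA(0-8h) (3 embryos), TSA(0-8h)+VC(0-8h) (2 embryos) and TSA(0-8h)+VC(8-15h) (3 embryos). TSA, trichostatin A, is an inhibitor of histone deacetylases and was given at 50 nM. VC, vitamin C, is an antioxidant and a cofactor of dioxygenases that demethylate DNA and histones, and was given at 10 µg/ml. Hours count from the start of activation. All embryos, Control included, were activated with strontium in the presence of cytochalasin B, were cultured in medium with deionized BSA, and were collected at 28 h. The labels count this time from nuclear transfer. The zona pellucida itself was taken off before RNA was extracted, so the values are RNA of the embryo. Each embryo was a separate sample, and p-values measure the spread between these embryos.

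The zona pellucida is the coat of glycoproteins that the growing oocyte lays down around itself, and in the mouse it is built from ZP1, ZP2 and ZP3. GDF9 and BMP15 are related TGF-beta family ligands that the oocyte secretes to act on the surrounding granulosa and cumulus cells, and OOSP1 is another protein the oocyte secretes. Ovastacin, the product of Astl, is released from cortical granules at fertilization and cleaves ZP2. FIGLA is a basic helix-loop-helix factor that binds E-boxes upstream of the zona genes, and NOBOX is a homeodomain factor of oocytes. After nuclear transfer the oocyte's own chromosomes are gone while its cytoplasm stays. Maternal RNA is known to decline up to the 2-cell stage, when the embryonic genome is activated.

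The sequences before the transcription start of 3 of these genes are shown because the letters bound by FIGLA-type and NOBOX-type factors can be searched in them. Promoter windows of RefSeq on GRCm38.p6 were matched for 6 of the 9 genes, namely Bmp15, Oosp1, Zp3, Astl, Nobox and Figla. The 3 genes printed are the one with the steadiest RNA over the embryos (Bmp15), the other one at 1 RPKM or more in every embryo (Oosp1) and the zona gene with a matched window (Zp3). They lie at chrX:6320725-6320974 on the minus strand, chr19:11691052-11691301 on the minus strand and chr5:135979855-135980104 on the plus strand. Capitals mark, on both strands, the E-box (spelled CANNTG) and homeodomain-type letters. The latter were spelled TAATTA in a first form, as TAATTG in another, and in the remaining form as TAGTTG.

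Bmp15: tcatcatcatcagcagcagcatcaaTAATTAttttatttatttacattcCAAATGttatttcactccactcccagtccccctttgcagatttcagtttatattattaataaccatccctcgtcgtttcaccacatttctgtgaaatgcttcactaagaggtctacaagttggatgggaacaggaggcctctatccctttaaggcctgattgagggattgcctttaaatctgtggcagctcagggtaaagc
Oosp1: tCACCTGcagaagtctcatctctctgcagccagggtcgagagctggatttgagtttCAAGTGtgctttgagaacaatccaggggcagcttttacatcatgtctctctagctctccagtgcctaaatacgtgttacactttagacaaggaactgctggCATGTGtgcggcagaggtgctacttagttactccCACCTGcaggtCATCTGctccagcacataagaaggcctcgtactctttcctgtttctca
Zp3: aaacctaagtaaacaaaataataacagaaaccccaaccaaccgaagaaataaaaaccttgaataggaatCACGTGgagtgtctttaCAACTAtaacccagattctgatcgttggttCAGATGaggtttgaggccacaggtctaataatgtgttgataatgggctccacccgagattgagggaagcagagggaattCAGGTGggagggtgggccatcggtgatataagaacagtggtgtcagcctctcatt

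Bmp15 held 1 CANNTG and 1 TAATTA in these 250 bases, Oosp1 held 5 CANNTG, and Zp3 held 3 CANNTG and 1 TAGTTG. No site overlapped another. Of 32851 promoter windows of the same length, 66.2% held the E-box letters, so that an E-box was the common case. The homeodomain-type letters were in 4.84% (TAATTA), in 7.17% of the windows (TAATTG) and in 5.69% of the windows (TAGTTG). The matches are letters only, and no binding was measured.

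Between 3021540 and 13589389 reads were counted per embryo, and 3 reads on a transcript of 1 kb were worth from 0.221 RPKM at the greatest depth to 0.993 RPKM at the least. The unit RPKM divides the reads of a transcript by its length and by the size of the library, which puts genes on a common scale. How evenly different genes were amplified was not tested. RPKM is a share of the RNA read, and less RNA of a gene cannot be told apart from more RNA of others. Entries at 1 RPKM or more numbered 3322 to 6728 per embryo. Control replicate 2 stood apart from the other embryos: the 9 genes summed to 98.99 RPKM in it and to between 361.7 and 1184 RPKM in the other 13. It had 6864593 reads, near the median of 7318366. The 7 genes of the fixed list of 2-cell activation summed to 5.94 RPKM there, the lowest of the 14 embryos, while 10 other oocyte RNAs summed to 822.6 RPKM, the fourth highest. What part the state of this embryo had in the results was not tested, and the log2 differences named below for the pairs of treatments and for any TSA or any VC are also given without it. The embryo was singled out by the low levels of these same genes, so values without it are a description only.

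**Figure D1:**
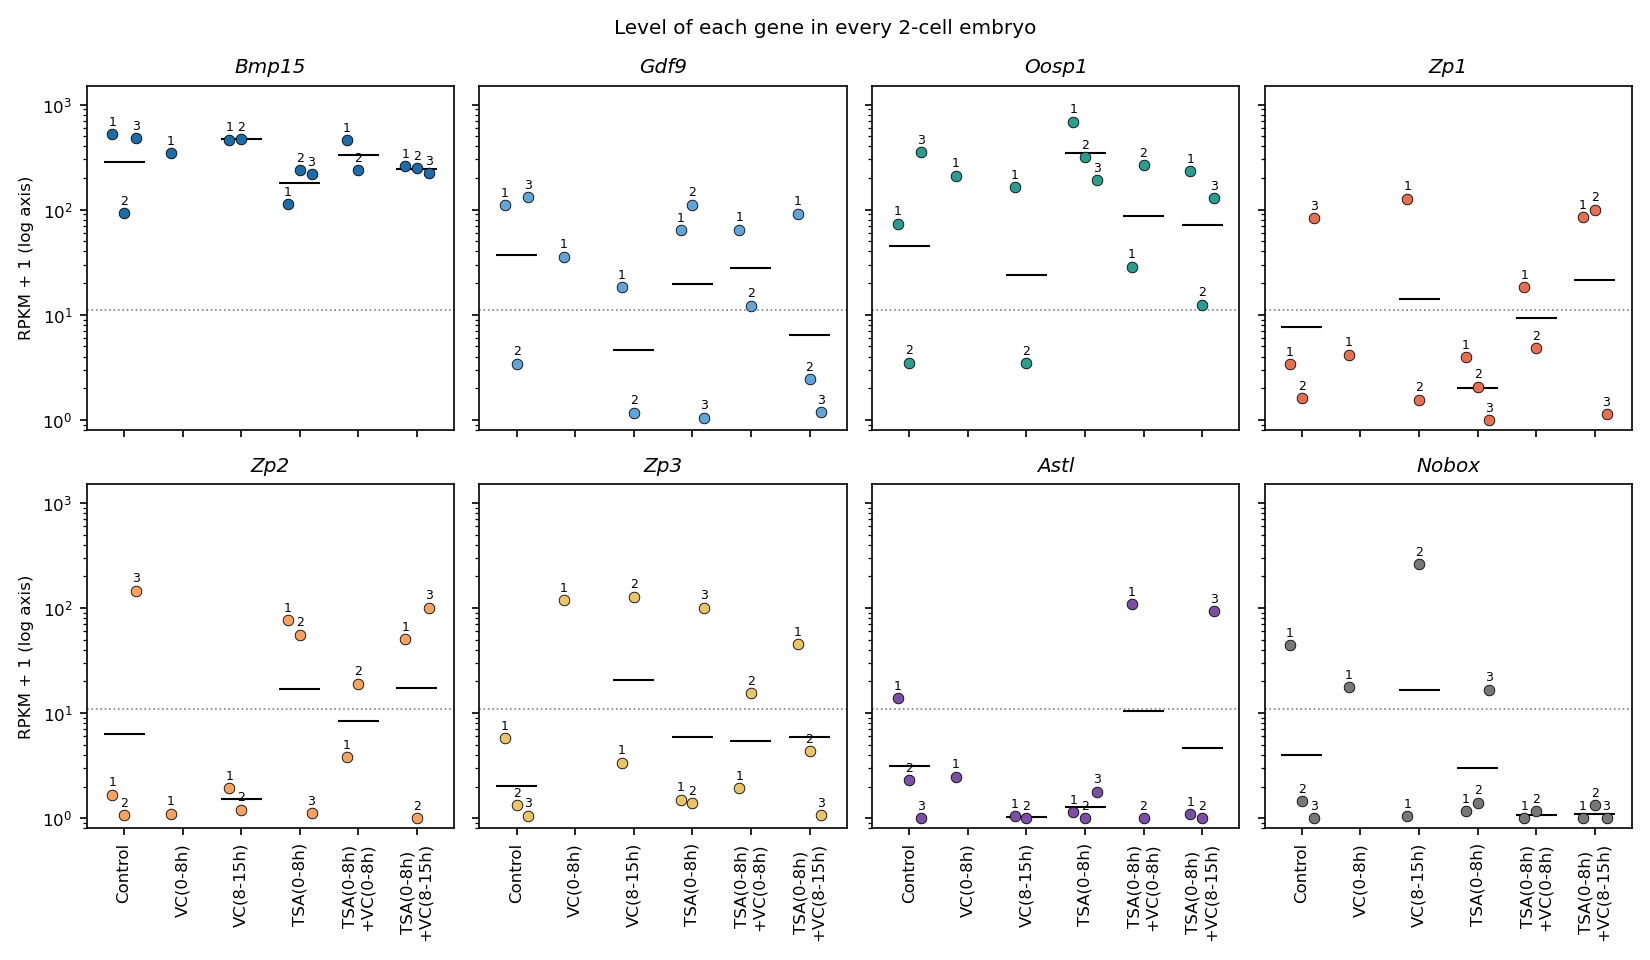
RPKM + 1 on a log axis for the 8 detected genes in each of the 14 embryos, by treatment, with replicate numbers beside the points and a bar at the mean of log2(RPKM + 1) for treatments with 2 or 3 embryos. The dotted line is 10 RPKM. Bmp15 stayed between 91.3 and 520 RPKM, whereas the zona genes, Astl and Nobox had high and near-zero embryos side by side within treatments.

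Bmp15 (chromosome X of mm9, 5891225 to 5897839, minus strand, 2 exons) was the most abundant and the steadiest of the 9 genes. Its level was 520, 91.3 and 474 RPKM in Control replicates 1 to 3 and 345 RPKM in the VC(0-8h) embryo. VC(8-15h) embryos were at 462 and 467 RPKM, and TSA(0-8h) embryos at 111, 237 and 217 RPKM. Both agents from the start gave 455 and 235 RPKM, and TSA(0-8h)+VC(8-15h) embryos were at 260, 246 and 221 RPKM. Control replicate 2 and TSA(0-8h) replicate 1 were the low embryos, and the overlap of Control with the other treatments rested on Control replicate 2. The other Control embryos were at 520 and 474 RPKM, and the highest of the 11 treated embryos was close below, at 467 RPKM. This order leaves out an embryo after its low level was seen. How many other entries show such an order was not counted. The levels of Bmp15 rested on 1031 to 19743 reads.

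The highest Bmp15 level was 5.69 times the lowest. Over the 14 embryos the SD of its log2(RPKM + 1) was 0.772, and 0.648 without Control replicate 2. Of the 848 entries at 1 RPKM or more in all 14 embryos, which were 3.31% of all entries and had a median SD of 1.48, 100 varied less than Bmp15 and 70 had a higher mean level. Its mean was 310 RPKM over the 14 embryos, against a median of 108 RPKM for those 848 entries. Across the whole series 100 entries had a higher mean than Bmp15.

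Gdf9 (chromosome 11, 53244525 to 53251406, plus strand, 2 exons), the partner ligand of Bmp15, was far less even. Control embryos were at 110, 2.42 and 130 RPKM, and the VC(0-8h) embryo at 34.6 RPKM. The VC(8-15h) embryos had 17.4 and 0.169 RPKM, the second from 2 reads. TSA(0-8h) replicates 1 to 3 were at 63.1, 111 and 0.0472 RPKM, the last from 1 read. TSA(0-8h)+VC(0-8h) embryos were at 63.4 and 11.2 RPKM, and TSA(0-8h)+VC(8-15h) embryos at 90.6, 1.43 and 0.181 RPKM. High and low embryos thus stood side by side in each of the 3 treatments with 3 embryos, and 3 of 14 embryos were below 1 RPKM.

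Bmp15 exceeded Gdf9 in all 14 embryos, by 1.77 times at the least (TSA(0-8h) replicate 1) and by 15.5 times at the median. The ratio was 4.73, 37.7 and 3.64 in Control embryos. It was above 1000 in 3 embryos, at 2769 in VC(8-15h) replicate 2, 4608 in TSA(0-8h) replicate 3 and 1221 in TSA(0-8h)+VC(8-15h) replicate 3, where Gdf9 had 1 to 4 reads. In those 3 embryos Bmp15 itself was at 467, 217 and 221 RPKM, within its range elsewhere.

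Oosp1 (chromosome 19, 11741950 to 11765640, minus strand, 5 exons) was read in every embryo too, over a wider range. Its level in Control embryos was 72.5, 2.50 and 351 RPKM, and the VC(0-8h) embryo had 209 RPKM. VC(8-15h) embryos were at 163 and 2.44 RPKM. The 3 TSA(0-8h) embryos were at 684, 312 and 189 RPKM, which held the highest value of all. TSA(0-8h)+VC(0-8h) embryos were at 27.7 and 263 RPKM, and TSA(0-8h)+VC(8-15h) embryos at 232, 11.5 and 128 RPKM. Low values of 14 and 15 reads stood in VC(8-15h) replicate 2 and Control replicate 2. Among the 848 entries found in all embryos, 817 varied less than Oosp1, whose SD was 2.46 on the log2 scale.

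The zona genes ranged from 0 or single reads to over 100 RPKM between embryos. Values from 1 to 10 RPKM were found in 5 embryos for Zp1, in 1 for Zp2 and in 3 for Zp3. Zp1 (chromosome 19, 10988777 to 10995122, minus strand, 12 exons) was at 2.40, 0.606 and 82.4 RPKM in Control embryos and 3.17 RPKM in the VC(0-8h) embryo. VC(8-15h) embryos had 126 and 0.554 RPKM. TSA(0-8h) embryos were all low, at 2.92, 1.06 and 0 RPKM. The levels were 17.2 and 3.81 RPKM with TSA(0-8h)+VC(0-8h), and 83.6, 99.0 and 0.127 RPKM with TSA(0-8h)+VC(8-15h). In 4 treatments, 5 embryos therefore held 10 RPKM or more, with 108 to 2392 reads each, and the rest held 0 to 96 reads.

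Zp2 (chromosome 7, 127270286 to 127288804, minus strand, 18 exons) encodes the zona protein that ovastacin cleaves. It was at 0.671, 0.0662 and 145 RPKM in Control embryos, 0.107 RPKM in the VC(0-8h) embryo, and 0.922 and 0.208 RPKM in VC(8-15h) embryos. TSA(0-8h) embryos had 75.97, 54.9 and 0.116 RPKM. The TSA(0-8h)+VC(0-8h) embryos had 2.79 and 18.1 RPKM, and the TSA(0-8h)+VC(8-15h) embryos 49.6, 0 and 99.4 RPKM. The 145 RPKM of Control replicate 3 came from 4347 reads, whereas Control replicates 1 and 2 had 8 reads and 1 read.

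Zp3 (chromosome 5, 136455969 to 136464494, plus strand, 8 exons) encodes another zona protein and had its high values in other embryos. Control embryos were at 4.76, 0.332 and 0.0559 RPKM, and the VC(0-8h) embryo at 117 RPKM. VC(8-15h) embryos were at 2.39 and 128 RPKM, TSA(0-8h) embryos at 0.503, 0.389 and 99.4 RPKM. With TSA(0-8h)+VC(0-8h) the levels were 0.931 and 14.5 RPKM, and with TSA(0-8h)+VC(8-15h) they were 44.1, 3.32 and 0.0618 RPKM. No Control embryo reached 5 RPKM, while 1 embryo in each of the other 5 treatments was above 10 RPKM.

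Counted over embryos, Zp1 was at 10 RPKM or more in 5 of 14, Zp2 in 6 and Zp3 in 5. In 9 embryos exactly 1 of the zona genes reached that level, in 2 embryos 2 did, in 2 embryos none did, and 1 embryo, TSA(0-8h)+VC(8-15h) replicate 1, had all 3. Control replicate 3 was high for Zp1 and Zp2 and had 1 read of Zp3. Zp1 and Zp2 were both high in 2 embryos, Zp2 and Zp3 in 2, and Zp1 and Zp3 in 1. Summed over the zona genes, the level was 1.00 RPKM in Control replicate 2, 7.83 RPKM in Control replicate 1 and between 20.9 and 227.8 RPKM in the other 12 embryos.

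Astl (chromosome 2, 127164375 to 127183387, plus strand, 9 exons) was at 10 RPKM or more in 3 of 14 embryos. It was at 107 RPKM in TSA(0-8h)+VC(0-8h) replicate 1, 92.4 RPKM in TSA(0-8h)+VC(8-15h) replicate 3 and 12.95 RPKM in Control replicate 1, with 830, 2696 and 167 reads. The other 11 embryos were at 0 to 1.48 RPKM, and 5 of them had no read. Nobox (chromosome 6, 43253673 to 43259561, minus strand, 9 exons) reached that level in 4 embryos, at 262 RPKM in VC(8-15h) replicate 2, 43.4 RPKM in Control replicate 1, 16.7 RPKM in the VC(0-8h) embryo and 15.7 RPKM in TSA(0-8h) replicate 3. The other 10 embryos were at 0 to 0.462 RPKM, from at most 6 reads, and 4 of these had no read. None of the 5 embryos that had both TSA and VC was among the high ones.

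Figla (chromosome 6, 85967185 to 85970990, plus strand, 3 exons) had no read in any of the 14 embryos. On a transcript of 1 kb, 0 reads allow a level of up to 0.221 to 0.993 RPKM, depending on the library, for counting error only. RNA of Zp1, Zp2 and Zp3 was thus read in embryos in which Figla was not detectable at this depth. None of the 9 genes overlaps another gene of the mm9 annotation on either strand.

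**Figure D2:**
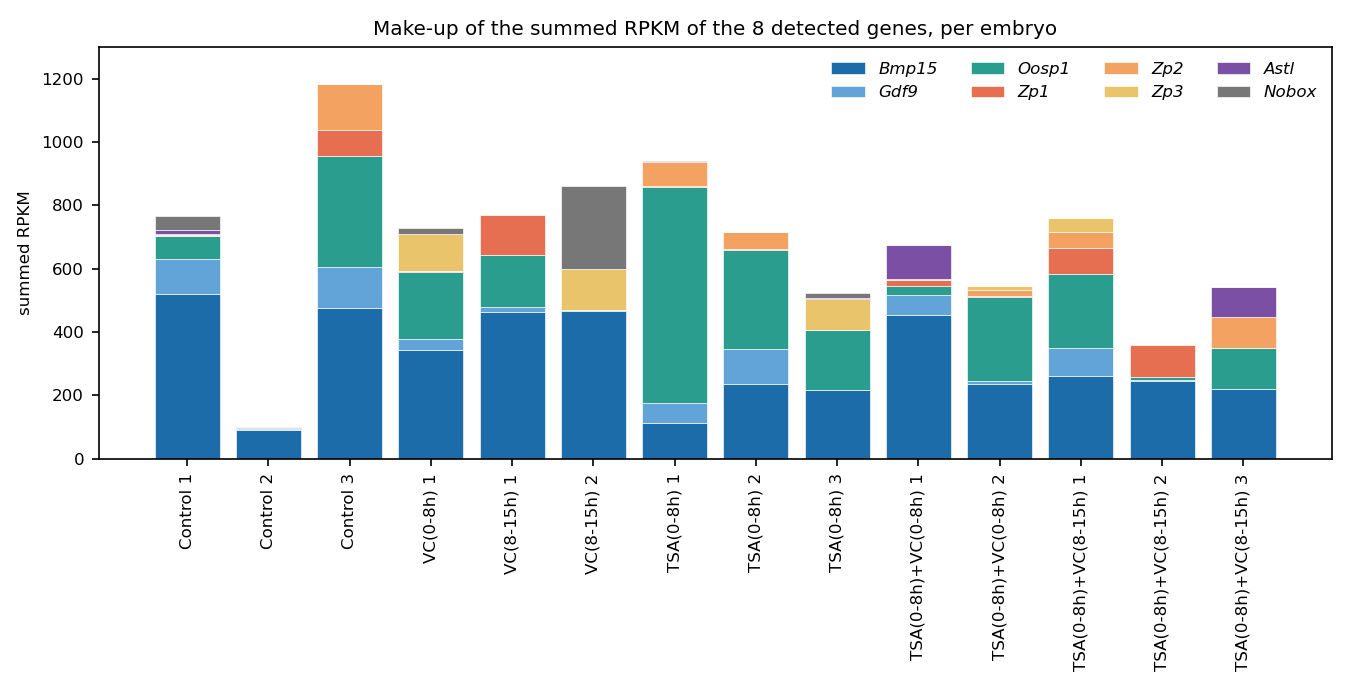
Summed RPKM of the 8 detected genes in each embryo, with bars starting at 0 and split by gene. Control replicate 2 is the lowest bar at 98.99 RPKM and Control replicate 3 the highest at 1184 RPKM, and the make-up changes from embryo to embryo, with Bmp15 at 11.9% to 92.2% of the sum.

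The summed level of the 9 genes averaged 683 RPKM in Control (SD 547, n = 3). It averaged 726 RPKM with TSA(0-8h) (SD 209, n = 3) and 554 RPKM with TSA(0-8h)+VC(8-15h) (SD 199, n = 3). The VC(0-8h) embryo had 727 RPKM, the VC(8-15h) embryos 772 and 860 RPKM and the TSA(0-8h)+VC(0-8h) embryos 674 and 546 RPKM. Control overlapped with both combined treatments through Control replicate 2 alone. The other Control embryos were at 766 and 1184 RPKM, and the highest embryo given both agents was close below, at 759 RPKM. Both VC(8-15h) embryos lay above all embryos given both agents. These sums were not tested, and the order of Control leaves out an embryo after its low sum was seen. How many other sets of genes show such orders was not counted. Bmp15 supplied 11.9% to 92.2% of the sum of an embryo, with a median of 45.2%. The lowest share was that of TSA(0-8h) replicate 1, where Oosp1 was the largest part, and the highest that of Control replicate 2.

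**Figure D3:**
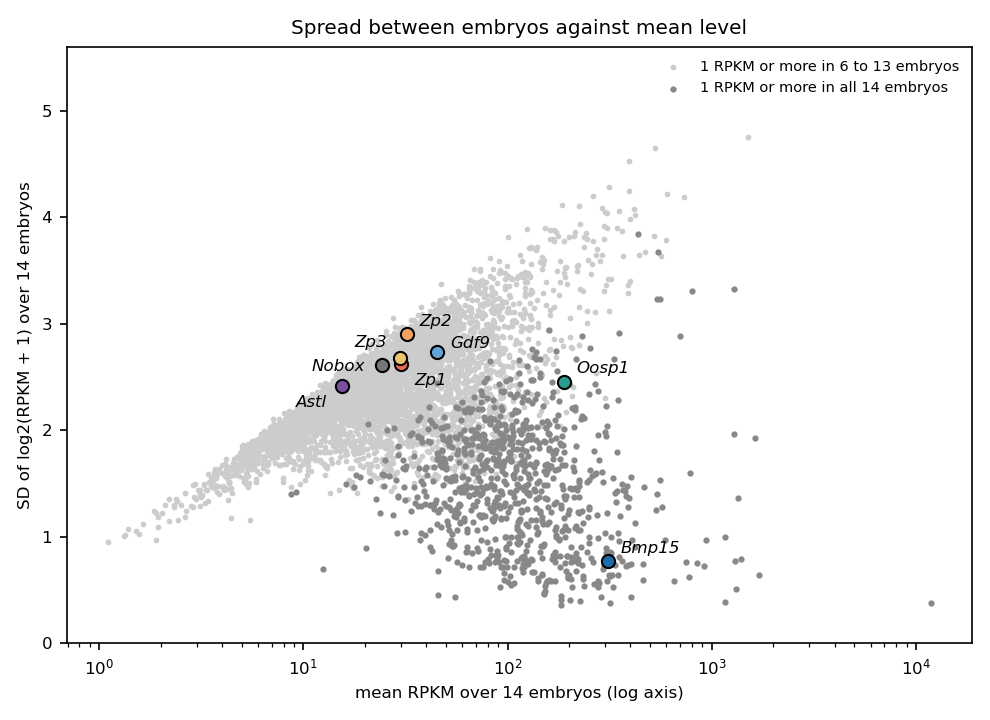
SD of log2(RPKM + 1) over the 14 embryos against the mean RPKM on a log axis, for the 5312 entries at 1 RPKM or more in at least 6 embryos (grey, darker where all 14 reach it), with the 8 detected genes marked. Bmp15 lies low at an SD of 0.772, and the others lie between 2.42 and 2.90.

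Apart from Bmp15, the detected genes had SDs between 2.42 (Astl) and 2.90 (Zp2) on the log2 scale. The 5312 entries at 1 RPKM or more in at least 6 embryos had a median SD of 2.26. Wide scatter between single embryos was therefore common to most entries in these libraries. Amplification from a part of 1 embryo's RNA was shared by all libraries, and its part in the scatter was not tested.

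Whether TSA or VC changed the RNA of these genes was asked in 7 comparisons. None of them set early against late VC, and no treatment gave VC before TSA. No oocyte was sampled, so RNA left by the oocyte cannot be told apart from RNA newly made by the embryo. Entries were tested with limma on log2(RPKM + 1), and p-values were adjusted over all entries tested in each comparison. The number of the 9 genes that passed the filter was 3 (Bmp15, Gdf9 and Oosp1) for TSA(0-8h)+VC(8-15h) versus Control and for TSA(0-8h) versus Control, and 2 (Bmp15 and Oosp1) for TSA(0-8h)+VC(8-15h) versus TSA(0-8h). It was 6 (these and the 3 zona genes) in the 4 comparisons fitted on all 14 embryos. Astl and Nobox stayed below the filter throughout.

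In the 32 limma tests of these genes, 0 passed an adjusted p of 0.05, and 1 had an unadjusted p under 0.05. With limma-voom on the recovered reads it was 0 of 32 at both levels. Among all entries the share past the limma threshold was 0.0293% for TSA(0-8h)+VC(8-15h) versus Control, 0.119% for TSA(0-8h) versus Control, 0% for TSA(0-8h)+VC(8-15h) versus TSA(0-8h), 0.0188% for VC(8-15h) versus Control, 0% for TSA(0-8h)+VC(0-8h) versus TSA(0-8h), and 0.0377% each for any TSA versus no TSA and any VC versus no VC. The comparisons with 0% had 532 higher and 72 lower entries, and 263 higher and 35 lower entries, at an unadjusted p under 0.05. With limma-voom 278 higher and 35 lower entries passed the adjusted threshold in the first of them, and 1 higher and 2 lower in the second. The limma-voom shares of all entries, in the order of the comparisons above, were 6.26%, 4.39%, 9.65%, 0.0565%, 0.0565%, 0.0188% and 0.0377%. Beside the 0 of 32, the background was thus close to 0 with limma, and up to 9.65% with limma-voom.

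The smallest p was that of Oosp1, whose level was higher in TSA(0-8h) embryos (395 RPKM on average) than in Control embryos (142 RPKM). The log2 difference was 2.94 (SE 1.29, 95% interval 0.29 to 5.59), with an unadjusted p of 0.0311 and an adjusted p of 0.264 from limma, fitted across all entries. The highest Control embryo, at 351 RPKM, lay above the lower TSA(0-8h) embryos, and the exact permutation test gave p = 0.3, where 0.1 is the smallest p that 3 against 3 allows. Without Control replicate 2 the log2 difference was 1.10 (adjusted p = 0.77). For TSA(0-8h)+VC(8-15h) versus Control, the log2 difference of Oosp1 was 0.68 (-2.57 to 3.94, adjusted p = 0.864 from limma), and it turned to -1.16 (adjusted p = 0.702) without that embryo, to -0.04 with median-ratio scaling and to -0.16 with quantile normalization. Oosp1 was lower with TSA(0-8h)+VC(8-15h) than with TSA(0-8h) by a log2 difference of -2.25 (95% interval -4.52 to 0.02, adjusted p = 0.273 from limma), and 2 of the 3 embryos lay below all TSA(0-8h) embryos. These comparisons share the TSA(0-8h) embryos, so they are not independent.

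Bmp15 had the narrowest intervals. Its log2 difference was -0.23 (95% interval -1.71 to 1.26) for TSA(0-8h)+VC(8-15h) versus Control, which median-ratio scaling moved to -1.05 and leaving out Control replicate 1 turned to 0.21. It was -0.66 (-2.48 to 1.17) for TSA(0-8h) versus Control, and -0.21 with median-ratio scaling. For TSA(0-8h)+VC(8-15h) versus TSA(0-8h) it was 0.43 (-1.12 to 1.97), which median-ratio scaling turned to -0.89. The differences were 0.71 (-1.04 to 2.47) for VC(8-15h) versus Control, 1.10 with median-ratio scaling, and 0.86 (-0.89 to 2.62) for TSA(0-8h)+VC(0-8h) versus TSA(0-8h), the latter turning to -0.32 with median-ratio scaling. Adjusted p-values of Bmp15 from limma were 0.725 or higher in all 7 comparisons. Without Control replicate 2 the first 2 of these differences were -1.04 and -1.47 (adjusted p = 0.371 and 0.538), and that of VC(8-15h) versus Control was -0.10 (adjusted p = 0.994).

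Gdf9 differed by -2.52 (95% interval -6.79 to 1.75, adjusted p = 0.547 from limma) for TSA(0-8h)+VC(8-15h) versus Control, by -0.91 (-5.13 to 3.30) for TSA(0-8h) versus Control and by -2.99 (-7.73 to 1.76) for VC(8-15h) versus Control. Without Control replicate 2 these were -4.24 (adjusted p = 0.296), -2.62 (adjusted p = 0.747) and -4.70 (adjusted p = 0.824). The intervals hold changes of many fold in both directions, so neither a change nor its absence is shown. In the first 2 of these comparisons Gdf9 passed the filter through the Control embryos alone, the group with its higher mean. These 2 differences are therefore no support for a lower level. With a filter blind to the groups their adjusted p from limma was 0.784 and 0.978.

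**Figure D4:**
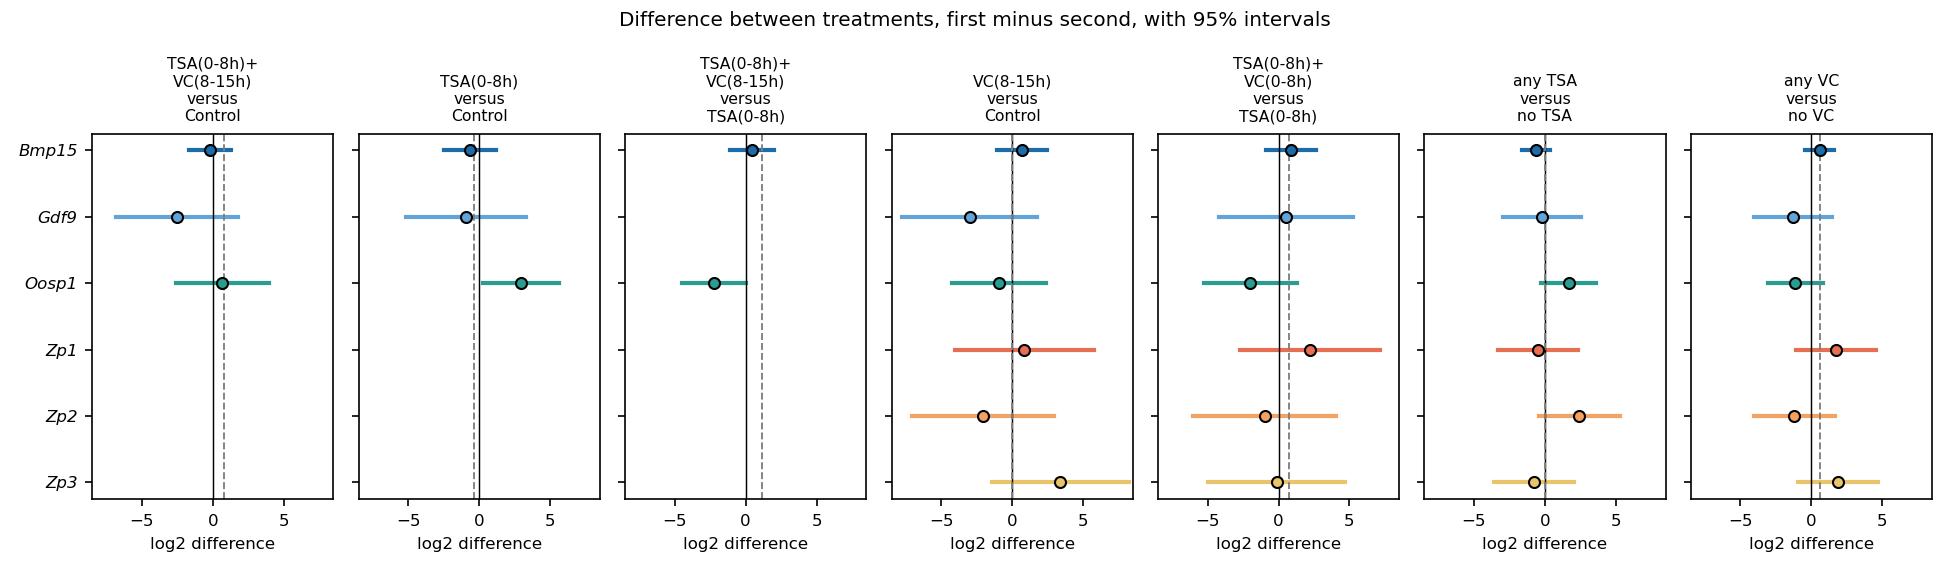
Log2 differences of log2(RPKM + 1), first treatment minus second, with 95% intervals from limma, for the oocyte genes that passed the filter in each of the 7 comparisons. The dashed line is the median difference of all entries tested. Every interval but that of Oosp1 in TSA(0-8h) versus Control spans 0.

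The median difference of all entries tested was itself above 0 in several comparisons. It was 0.78, -0.38 and 1.18 in the 3 comparisons of treatments with 3 embryos each, 0.02 for VC(8-15h) versus Control, 0.75 for TSA(0-8h)+VC(0-8h) versus TSA(0-8h), 0.02 for any TSA and 0.59 for any VC. Median-ratio scaling moved the first 3 to 0.08, 0.01 and 0.04. The medians over the oocyte genes tested were -0.23, -0.66, -0.91, -0.11, 0.20, -0.34 and -0.27 in the same order. Relative to the median of all entries, Oosp1 was at 3.32 for TSA(0-8h) versus Control and at -3.43 for TSA(0-8h)+VC(8-15h) versus TSA(0-8h), while Bmp15 was at -0.28 and -0.75.

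Over all 14 embryos, 8 with and 6 without TSA, Oosp1 differed by 1.67 (95% interval -0.26 to 3.61) and Zp2 by 2.42 (-0.43 to 5.28), each with adjusted p = 0.938 from limma. Bmp15 differed by -0.64 (-1.64 to 0.37). For VC, 8 embryos with and 6 without, Zp1 differed by 1.75 (-1.07 to 4.58, adjusted p = 0.703 from limma) and Zp3 by 1.84 (-0.98 to 4.66, adjusted p = 0.69), while Bmp15 differed by 0.59 (-0.42 to 1.60), which became -0.12 with median-ratio scaling. The VC difference of Oosp1 was -1.13 (-3.07 to 0.80, adjusted p = 0.724 from limma). Without Control replicate 2 the TSA differences were 0.83 for Oosp1, 2.02 for Zp2 and -0.95 for Bmp15, the last with an unadjusted p of 0.0486 and an adjusted p of 0.986 from limma. The VC differences were then 1.46 for Zp1, 1.50 for Zp3, 0.27 for Bmp15 and -1.97 for Oosp1, the last with an unadjusted p of 0.0296 and an adjusted p of 0.496 from limma. Control replicate 2 was left out after its low levels of these genes were seen, so these p-values are no support for a difference. Libraries were put into 3 pools by a number in their deposited names. Within the pools the TSA difference of Zp2 was 3.77 in pool 1, 3.18 in pool 2 and -3.79 in pool 3. That of Oosp1 was 0.60, 2.89 and -1.17. The VC difference of Zp1 was 3.99, 2.04 and -3.02, and that of Zp3 was 1.18, 4.55 and -3.28. None of these 4 differences kept its sign in all 3 pools, and pool 3 held only 3 embryos, 1 of which had no TSA and 1 of which had VC. The TSA difference of Bmp15 was -1.05, -0.04 and -1.11, and its VC difference was 0.65, 1.07 and -0.54.

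Whether late VC acted differently with and without TSA was tested as the difference of the VC(8-15h) effects. For the 6 genes tested it ran from -3.38 (Zp3) to 2.53 (Zp1), with adjusted p of 0.917 or higher from limma. For the genes below the filter the groups were compared with 24 two-sided exact permutation tests, whose smallest p was 0.0979, for Nobox with any TSA versus no TSA. Nobox averaged 2.10 RPKM in the 8 TSA embryos and 53.8 RPKM in the 6 others, and 1 TSA embryo and 3 others were at 10 RPKM or more. The groups did not overlap for Zp1 and Nobox between TSA(0-8h)+VC(0-8h) and TSA(0-8h) embryos, where 2 against 3 embryos cannot give an exact p under 0.2. In that comparison 19.9% of all entries tested did not overlap, and Nobox, below the filter, was not one of the entries tested. In the other 6 comparisons all groups overlapped for every gene detected. Entries wholly above and wholly below were 555 and 195 of 3416 for TSA(0-8h)+VC(8-15h) versus Control, and 171 and 298 of 2529 for TSA(0-8h) versus Control. They were 595 and 111 of 3243 for TSA(0-8h)+VC(8-15h) versus TSA(0-8h), and 539 and 407 of 5312 for VC(8-15h) versus Control. For any TSA they were 2 and 3 of 5312, and for any VC 16 and 1 of 5312.

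Genes of the same pathways were taken from 3 lists. Of the 16 genes of GDF9 and BMP15 signalling, 9 were at 1 RPKM or more in at least 6 embryos. Bmpr2, the type II receptor that both ligands use, had a mean of 59.6 RPKM and was at 10 RPKM or more in 13 of 14 embryos. Smad3, a transducer of GDF9-type signals, had a mean of 50.3 RPKM (range 1.57 to 135), and the inhibitory Smad7 one of 38.6 RPKM. In the 7 comparisons 0 of 51 tests of these entries passed the adjusted threshold, with a smallest adjusted p of 0.0991 from limma.

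Of 9 oocyte transcription regulators, 5 were at 1 RPKM or more in at least 6 embryos. Foxo3, which restrains the growth of primordial follicles, had a mean of 94.5 RPKM, the pluripotency factor gene Pou5f1 60.1 RPKM, and Taf4b, a subunit of a general transcription complex, 35.8 RPKM. Of 7 genes of the egg surface and of zona cleavage, 1 was at that level in at least 6 embryos. The 3 with the highest means were Oosp3, at 84.4 RPKM (781 RPKM in TSA(0-8h)+VC(8-15h) replicate 1), Fetub, whose product inhibits ovastacin, at 23.8 RPKM (328 RPKM in TSA(0-8h)+VC(0-8h) replicate 2), and Cd9, a sperm fusion gene of the egg membrane, at 8.90 RPKM. Both lists had 0 calls, in 29 and 4 tests.

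Cumulus cells were the nuclear donors, so 15 of their markers were examined as well. They summed to between 0 and 144 RPKM per embryo (median 7.94 RPKM), and 10 of the 15 stayed below 1 RPKM in every embryo, with Fshr, Hsd3b1, Inha and Inhba at 0 throughout. The highest sums came from Amhr2, at up to 144 RPKM in TSA(0-8h) replicate 3, and from Vcan and Kitl, at 69.0 and 20.9 RPKM in TSA(0-8h) replicate 2. By treatment, the sums ran from 0.415 to 20.8 RPKM (Control), from 0 to 144 RPKM (TSA(0-8h)) and from 2.82 to 63.7 RPKM (TSA(0-8h)+VC(8-15h)).

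The entries most like the oocyte genes over the 14 embryos were found by Pearson correlation with the mean z score of the 6 genes tested in all embryos, over 5262 entries. They were Dppa4 (r = 0.83), Tiam1 (0.78), Csnk2a1 (0.78), Kmt2c (0.78) and Marchf5 (0.77). These values are a description over 14 embryos that lie in 3 pools and differ in depth. Control replicate 2 had the lowest mean z score, at -1.24, and the other 13 embryos lay between -0.41 and 0.79.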

How the data were processed

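RNA of 14 single SCNT embryos was read as single-end libraries. The authors mapped trimmed reads to mm9 with TopHat2 and deposited RPKM values per RefSeq transcript. Whether counting used strand is not given in the sources used here. Reads were recovered from the RPKM steps: all 14532 entries read in 2 or more embryos came out whole within 0.0001 reads, and the recovery was tested on simulated data. Floors cover counting error only, whereas the intervals from limma rest on the spread between embryos.

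The genes and lists were chosen with earlier results of these data known. All 9 genes, counts over 6 fixed lists with their 3 highest genes, and the 5 most similar entries are named. The other oocyte RNAs are all named. Zp1, Zp2 and Gdf9 promoters are not printed.

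limma 3.58.1 in R 4.3.3 was fitted to log2(RPKM + 1), with a pseudocount of 1 and Benjamini-Hochberg adjustment. It was also run on simulated data, where recovery of the changes was required only at a spread below the median of these entries. The 3 comparisons of treatments with 3 embryos used their 6 embryos and entries at 1 RPKM or more in all 3 embryos of either treatment. The other 4 used all 14 embryos, entries at 1 RPKM or more in at least 6, and either the 6 treatments or TSA and VC as 2 additive terms. The filter of the 3 comparisons of 3 embryos each can favour entries high in 1 treatment. That of the other 4 does not use the treatments. Members below the filter of a comparison were compared by exact permutation tests. Pools 1, 2 and 3 of libraries held 5, 6 and 3 embryos. They were taken from a number in the deposited names, and the sample titles do not give a pool. Python 3.11.15, scipy 1.17.1 and matplotlib 3.10.9 were used. Alternatives were a pseudocount of 0.1, no filter, a filter blind to the groups, 2 scalings, limma-voom, the replicate block, a pool term, a single fit, and leaving out each embryo.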

Additional observations from a re-analysis of the deposited data

Results flagged for a closer look

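For the 8 detected genes, embryos were pooled into those with and without TSA and with and without VC, and the highest or lowest embryo was compared with its nearest neighbour by Dixon's criterion on log2(RPKM + 1). Of 32 such sets, 7 had an embryo that stood apart. The rate of about 1 in 20 by chance holds for independent sets of normally spread values. Many values here lay near the floor, so 7 of 32 cannot be set against that rate. Without TSA, Bmp15 was low in Control replicate 2, at 91.3 RPKM, with the next embryo at 345 RPKM. In the same 6 embryos Zp2 was high in Control replicate 3, at 145 RPKM against 0.922 RPKM for the next, and Astl was high in Control replicate 1, at 12.95 RPKM against 1.48 RPKM. Without VC, Astl was again high in Control replicate 1 (next 1.29 RPKM), Zp1 was high in Control replicate 3, at 82.4 RPKM against 2.92 RPKM, and Zp3 was high in TSA(0-8h) replicate 3, at 99.4 RPKM against 4.76 RPKM. Among embryos with TSA, Nobox was high in TSA(0-8h) replicate 3, at 15.7 RPKM against 0.406 RPKM for the next. These sets share embryos.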

How the results depend on the processing

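The count of oocyte genes past the threshold was 0 in each of the 7 comparisons and in all 106 alternative fits of these counts, with a smallest adjusted p of 0.14 from limma, for Oosp1 in TSA(0-8h)+VC(8-15h) versus TSA(0-8h) after median-ratio scaling. Of 32 log2 differences, 17 kept their sign in every alternative, and 38 of 496 alternative values had the other sign, none of them of a called gene. With the replicate block, 2 of 32 differences changed sign. Oosp1 had adjusted p = 0.173 for TSA(0-8h) versus Control and 0.185 for TSA(0-8h)+VC(8-15h) versus TSA(0-8h) under this block. The deviations of same-numbered embryos correlated between -0.0478 and 0.0309. In the 3 comparisons of 3 embryos each, replicates 1, 2 and 3 lay in library pools 1, 2 and 3. The replicate block was therefore also a block of pools there. These correlations cannot exclude that embryos were paired by pool. Among all entries the block moved the calls in the 3 comparisons of 3 embryos each from 1, 3 and 0 to 20, 4 and 196, a pseudocount of 0.1 moved them to 118, 104 and 195, and limma-voom to 214, 111 and 313, while no filter gave 0 calls in each. On leaving out 1 embryo, the widest ranges were in VC(8-15h) versus Control, from -2.31 to 4.05 for Zp1, -3.71 to 1.87 for Oosp1 and 0.75 to 6.00 for Zp3. For TSA(0-8h) versus Control, Gdf9 ran from -2.62 to 1.20 and Oosp1 from 1.10 to 4.42. Leaving out 1 of the 2 VC(8-15h) embryos assumes that the lone embryo varies like the rest. The cause of these shifts was not tested. Depth limits levels below 3 reads.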

Other observations

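Other RNAs that oocytes store also ranged widely between embryos. Of 10 such genes, Btg4, which acts in the removal of maternal RNA, was at 106 to 1338 RPKM in all 14 embryos (median 210 RPKM), and Oog1 was at 5.64 to 368 RPKM. Nlrp5, of the subcortical maternal complex, reached 10 RPKM in 10 embryos, with a median of 17.0 RPKM. Ooep, of the same complex, reached that level in 2 embryos, at up to 604 RPKM, and Zar1 in 2, at up to 181 RPKM. Padi6 and Tle6 reached 10 RPKM in 6 and 3 embryos. H1f8, Khdc3 and Mos did so in no embryo, with highest values of 7.092, 7.017 and 4.798 RPKM. Of the 10 genes, 6 were at 1 RPKM or more in at least 6 embryos. All but Btg4, Oog1 and Ooep are named after their values were seen. The 10 genes summed to 823 to 1698 RPKM in the 3 Control embryos and to 226 to 938 RPKM in the other 11. These ranges overlap and were not tested as a sum, and 0 of 40 limma tests of their entries passed the adjusted threshold over the 7 comparisons.

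Of 7 genes that mark activation of the 2-cell genome, Zfp352 (mean 81.5 RPKM), Tcstv1 (65.4 RPKM) and Tdpoz4 (56.4 RPKM) had the highest means. The list summed to 5.94, 64.0 and 282 RPKM in Control embryos, to 374 RPKM in the VC(0-8h) embryo and to 330 and 470 RPKM with VC(8-15h). It summed to between 149 and 365 RPKM with TSA(0-8h), to 553 and 145.5 RPKM with TSA(0-8h)+VC(0-8h), and to between 331 and 387 RPKM with TSA(0-8h)+VC(8-15h). No entry passed in 30 limma tests.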
